A study of Mus musculus with 8 samples.

Results

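A list of 40 genes of fatty acid uptake, storage and oxidation, matched by symbol, was examined in tumor-educated macrophages (TEMs) with and without deletion of *Phgdh*. Of these genes, 39 were analysed among 18635 in all, and *Ppara* was not analysed here. All 39 averaged 10 or more normalized counts over the samples and were tested. Normalized counts are the reads of a gene divided by the size factor of its sample, so that samples of different depth can be compared. PHGDH-deficient TEMs had less mRNA for the lipid droplet coat protein *Plin2*, for the lipid uptake genes *Cd36* and *Lpl* and for the carnitine shuttle genes *Slc25a20* and *Cpt1a* than control TEMs, and more for the fatty acid-binding proteins *Fabp4* and *Fabp5*.

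Bone marrow-derived macrophages (BMDMs) were grown from C57BL/6 mice aged 6 to 8 weeks and then kept for 24 h in medium conditioned by AE17 cells, a mouse mesothelioma line. Both genotypes carried floxed *Phgdh* alleles (*Phgdh* fl/fl), and their littermate donors differed in a Cre recombinase placed in 1 allele of *Cx3cr1* (*Phgdh* fl/fl *Cx3cr1*-Cre), which is active in macrophages and other myeloid cells. There were 4 biological replicates of each genotype, and *Phgdh* fl/fl TEMs served as controls. The comparison asks how loss of PHGDH, which catalyses the entry step of serine synthesis, alters these transcripts in macrophages exposed to tumor medium. Untreated macrophages were not analysed here, so the levels are those under tumor-conditioned medium only.

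Fatty acids reach macrophages as free acids through membrane proteins such as CD36 or are released from lipoproteins by lipoprotein lipase, and inside the cell they are bound by fatty acid-binding proteins and coupled to coenzyme A by acyl-CoA synthetases. The activated acids are either built into triglycerides and stored in lipid droplets coated by perilipins, or carried into mitochondria as carnitine esters and shortened by beta-oxidation, while peroxisomes shorten very long and branched chains. Macrophages are known for their large lipid uptake, and the peroxisome proliferator-activated receptors (PPARs), nuclear receptors that bind fatty acids, control many of these genes.

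The samples held 38219563 to 47027420 reads over genes, and size factors lay between 0.889 and 1.086. The targeted gene itself was checked against the labels: *Phgdh* had normalized counts of 119, 129, 117 and 105 in *Phgdh* fl/fl TEMs and of 32.6, 35.3, 14.2 and 26.3 in *Phgdh* fl/fl *Cx3cr1*-Cre TEMs. Every Cre sample lay below every control sample (log2 fold change -2.15, limma adjusted p = 5.09e-08). Across all genes, 5594 of 13629 tested genes passed an adjusted p of 0.05 (41.0%), 2830 with higher and 2764 with lower levels in Cre samples, and the median log2 fold change was -0.0018. With the trend of fold changes with GC content and gene length removed, 2168 genes were higher and 3366 lower. Along the second principal component (13.2% of the variance), replicates 1 and 4 of both genotypes lay apart from replicates 2 and 3. In replicates 1 and 4 alone (2 against 2 samples), 2925 genes were called, with 7 members higher and 8 lower, and in replicates 2 and 3 alone 4513 genes were called, with 7 members higher and 14 lower. This split was chosen after seeing the data, and a call lost in either part can reflect its smaller number of samples. Of the 8 macrophage markers, all 8 were analysed, and their summed normalized count ranged from 1030176 to 1121134 in control samples and from 1008585 to 1085172 in Cre samples. *Adgre1*, *Itgam*, *Fcgr1* and *Cd14* were lower and no macrophage marker was higher. Of the markers of other cells, *S100a8* of neutrophils was higher in Cre samples (summed range 467 to 575 in control and 576 to 631 in Cre samples, 1 of 7 analysed), and its part in the results below was not tested. The summed counts stayed at or below 9 for adipocytes (1 of 6 analysed, *Retn*), 91.5 for dendritic cells (4 of 6), 56.4 for fibroblasts and stroma (5 of 7) and 4.13 for lymphocytes (1 of 6). In these bulk samples, fewer cells of a type and less RNA per cell cannot be told apart.

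Control regions are shown for *Plin2*, *Cd36* and *Slc25a20* and for the receptor gene *Ppard*. The first 3 are known as PPAR target genes, were chosen among members that fell and do not stand for PPAR target genes as a group. The 250 bases before a transcription start are given from RefSeq (build GRCm38.p6), written 5′ to 3′ along the gene. Only the first listed window of each gene is printed. That of *Cd36* lies inside the annotated gene, whose upstream end is at 17888801. Those of *Slc25a20* and *Ppard* run past the annotated gene starts, at 108662088 and 28232700, and end inside the genes. The start that these macrophages use was not examined. Capitals mark a CCAAT box, spelled CCAAT or, on the opposite strand, ATTGG.
Plin2 promoter, chr4:86670060-86670309, strand minus: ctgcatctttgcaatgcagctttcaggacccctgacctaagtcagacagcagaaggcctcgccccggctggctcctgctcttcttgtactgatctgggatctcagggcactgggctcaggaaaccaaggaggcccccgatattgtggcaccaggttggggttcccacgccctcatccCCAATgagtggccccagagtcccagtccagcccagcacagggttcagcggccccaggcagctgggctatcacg
Cd36 promoter, chr5:17835897-17836146, strand minus: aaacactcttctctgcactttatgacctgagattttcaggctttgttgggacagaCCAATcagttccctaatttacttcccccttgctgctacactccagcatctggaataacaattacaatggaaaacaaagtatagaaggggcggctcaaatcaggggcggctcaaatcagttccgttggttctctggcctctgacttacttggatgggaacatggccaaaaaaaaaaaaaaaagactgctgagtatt
Slc25a20 promoter, chr9:108661886-108662135, strand plus: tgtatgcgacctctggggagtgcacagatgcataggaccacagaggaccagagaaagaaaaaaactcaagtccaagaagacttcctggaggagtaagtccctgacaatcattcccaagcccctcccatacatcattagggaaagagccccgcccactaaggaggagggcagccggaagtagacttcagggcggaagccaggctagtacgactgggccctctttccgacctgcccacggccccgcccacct
Ppard promoter, chr17:28232504-28232753, strand plus: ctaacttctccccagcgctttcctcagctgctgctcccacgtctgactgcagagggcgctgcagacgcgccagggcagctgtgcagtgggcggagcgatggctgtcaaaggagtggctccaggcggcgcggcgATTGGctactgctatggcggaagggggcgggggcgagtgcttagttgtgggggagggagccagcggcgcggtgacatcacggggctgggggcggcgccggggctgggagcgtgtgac

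Counted from the RefSeq start, the box began 73 bases before it in *Plin2* and 195 bases before it in *Cd36*. On the opposite strand, it began 117 bases before the RefSeq start in *Ppard*. None of the searched motifs was found in *Slc25a20*. RefSeq windows of this length were searched for 32 members (37 windows), and 15 of the 37 held CCAAT, against 33.8% of all 32851 promoter windows. The members on chromosome 18, *Acaa2* and *Ppargc1b*, were left out of this search, whereas the share over all windows had no such limit. CACGTG was found in 3 member windows, against 6.02% of all windows. None of the 37 member windows held TATAAA (12.4% of all windows). None held a direct repeat of AGGTCA with 1 base between its copies, the form of a PPAR response element (0.0335% of all windows). All motifs were searched on both strands, and none is contained in another. These matches describe letters in a window and say nothing about binding.

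In the comparison of genotypes, 8 members rose and 14 fell with the Cre genotype, and 17 did not pass the test. The lower members made up 35.9% of the 39, against 20.3% of all tested genes, and the higher members 20.5%, against 20.8%. When genes averaging 100 or more normalized counts were fitted alone, 14 of 36 members were lower (38.9%) and 8 were higher. Of all 10515 such genes, 2657 were lower and 2624 higher (50.2% in either direction). In the fit over all tested genes, 58.3% of these 36 members were called. The median log2 fold change of the members was -0.025, and their median absolute log2 fold change was 0.15, compared with 0.12 over all tested genes. Samples of the genotypes did not overlap for 23 members (59.0%), 9 higher and 14 lower, against 36.7% of all tested genes, a share not matched for read depth. Called changes beyond 0.26 on the log2 scale were seen in 6 higher and 7 lower of the 39 members. Of all 13629 tested genes, 1108 (8.13%) were higher and 715 (5.25%) lower by the same rule.

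**Figure D1:**
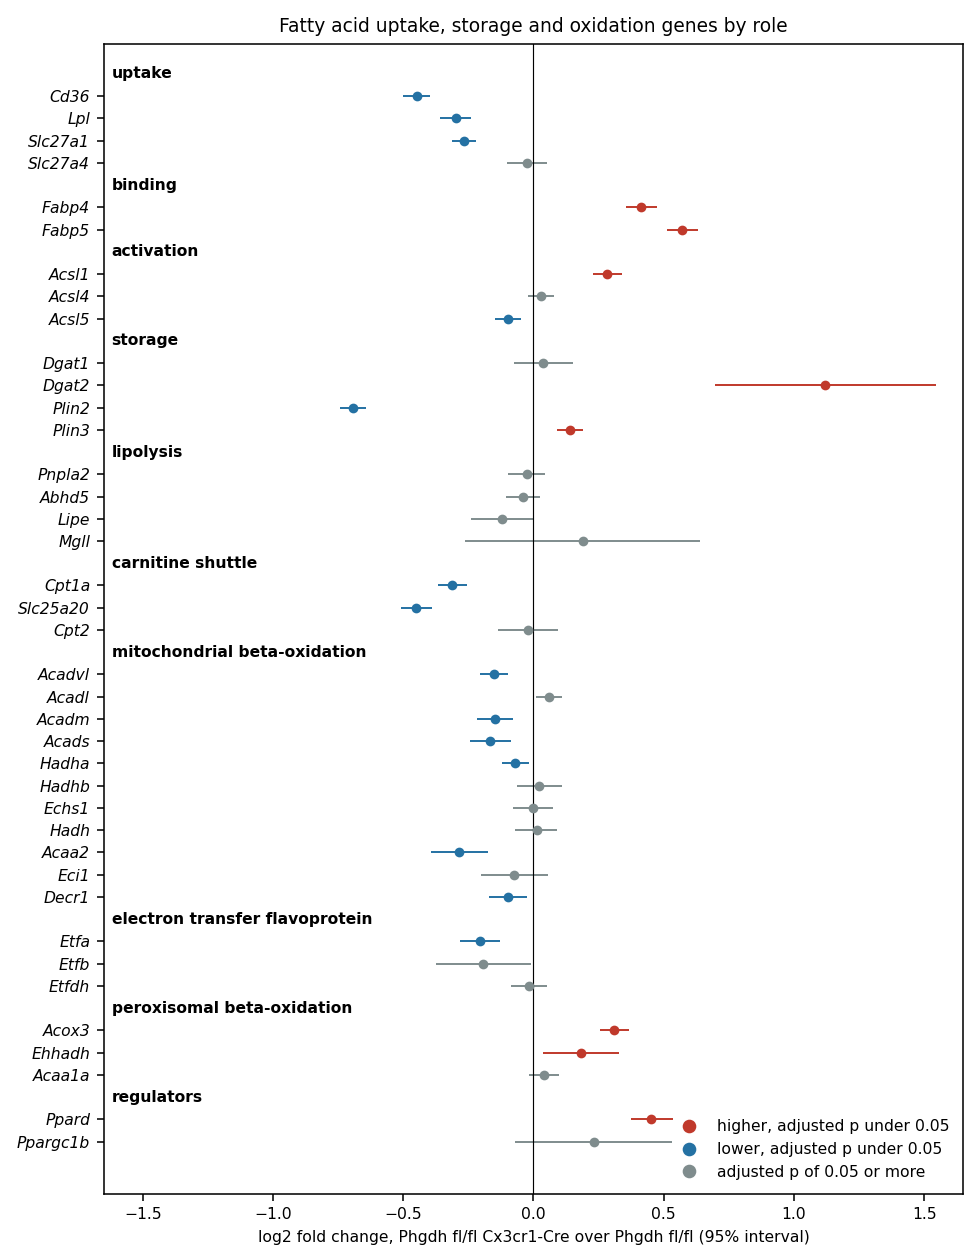
Log2 fold change of each of the 39 analysed members (x axis, Phgdh fl/fl Cx3cr1-Cre over Phgdh fl/fl, points with 95% intervals) ordered by role. The uptake and carnitine shuttle genes lie at or left of 0 down to -0.45, Plin2 lies at -0.69, both binding proteins lie right of 0, and all 4 lipolysis genes have intervals that reach 0 or nearly so.

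All 4 members of fatty acid uptake had log2 fold changes below 0, and 3 of the 4 fell, against 20.3% of all tested genes. The 6 tested uptake genes outside the members did not share this, with 2 higher and 1 lower (median log2 fold change 0.035). *Cd36* (chromosome 5, 17781690 to 17888801 on mm10), the scavenger receptor that brings long-chain fatty acids and oxidized lipoproteins into macrophages, had normalized counts of 179641, 175724, 182885 and 182045 in control samples and of 128904, 130303, 135767 and 132641 in Cre samples. The highest Cre sample thus lay well below the lowest control sample. *Cd36* fell by 26.8%, a log2 fold change of -0.45 (SE 0.024, limma adjusted p = 5.57e-12), and of -0.26 under quantile normalization. With an FPKM of 1007 over all samples, it was the most abundant member per length of annotated exons. That length was 3590 bases for *Cd36* and 10478 for *Lpl*, which had more reads.

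*Lpl* (chromosome 8, 68880491 to 68907448), the secreted lipase that frees fatty acids from lipoprotein triglycerides, had counts of 440302, 438533, 445643 and 445137 in control samples and of 350330, 366659, 375144 and 347674 in Cre samples. The control samples lay close together, at 442404 ± 3529 (SD, n = 4), whereas the Cre samples spread more widely at 359952 ± 13154, and the genotypes did not overlap. The log2 fold change of *Lpl* was -0.30 (SE 0.028, limma adjusted p = 3.34e-08), and its FPKM of 888 ranked below *Cd36* alone.

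*Slc27a1*, a fatty acid transport protein with acyl-CoA synthetase activity, fell from 11357 ± 155 to 9432 ± 154 normalized counts (log2 fold change -0.27, adjusted p = 4.01e-09). Its relative *Slc27a4* was at 1544 ± 48.6 and 1518 ± 58.7, with overlapping samples and a log2 fold change of -0.025 (95% interval -0.10 to 0.051). The ratio of *Slc27a1* to *Slc27a4* differed between the genotypes, from 7.17 to 7.78 in control samples and from 5.82 to 6.57 in Cre samples. That difference was -0.24 on the log2 scale (exact permutation p = 0.029, the smallest that 4 against 4 samples allow, and 0.0408 after adjustment over 10 pairs of members).

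*Lpl* and *Cd36* made up most of the reads of the whole group. The 39 members took 1.79% ± 0.0142 of all reads in control samples and 1.49% ± 0.0346 in Cre samples (SD, n = 4). *Lpl* accounted for 1.02% and 0.839%, and *Cd36* for 0.416% and 0.308%. Without these genes the share was 0.358% ± 0.00294 in control samples and 0.340% ± 0.00325 in Cre samples.

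**Figure D2:**
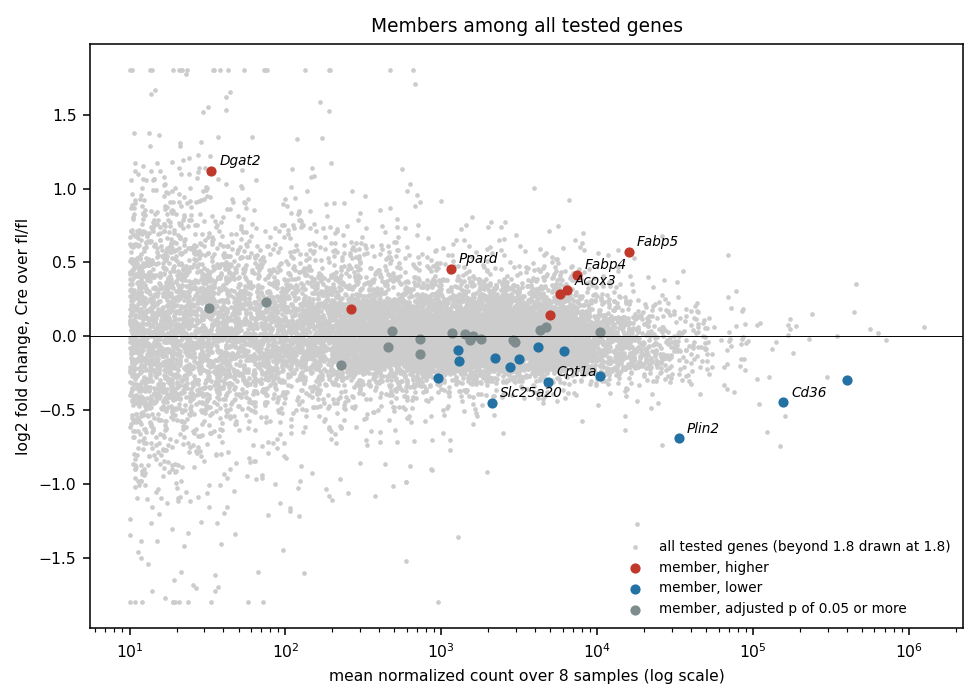
Mean normalized count over the 8 samples (x axis, log scale) and log2 fold change in Cre over control samples (y axis) for the members, in color, and all 13629 tested genes, in grey. Lpl, Cd36 and Plin2 are the most abundant members and all lie below 0, whereas Dgat2, which has the largest fold change of the members, lies among genes with few reads.

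In contrast to the uptake members, both fatty acid-binding proteins among the members rose, against 20.8% of all tested genes. Of the 5 tested binding genes outside the members, 1 was higher and 2 were lower. *Fabp5*, the epidermal form, which carries fatty acids through the cytosol and to nuclear receptors, had counts of 12967, 12642, 12640 and 12985 in control samples. In Cre samples the counts were 20310, 18647, 18024 and 19224. All Cre samples lay above all control samples, and the increase was 48.7% (log2 fold change 0.57, SE 0.028, limma adjusted p = 1.75e-12). Processed pseudogenes share up to 98.3% of their aligned bases with *Fabp5*, and those analysed had at most 17.0 normalized counts on average. How reads that match both were handled was not examined, so the assignment of *Fabp5* reads is uncertain.

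*Fabp4* (aP2), the form known from adipocytes and macrophages, had counts of 6186, 6261, 6581 and 6484 in control samples and of 8881, 8443, 8061 and 8623 in Cre samples. Again the genotypes did not overlap, with an increase of 33.3% (log2 fold change 0.41, SE 0.029, limma adjusted p = 3.03e-10). *Fabp4* and *Fabp5* are neighbors on chromosome 3, at 10204088 to 10208576 and 10012548 to 10016607. The ratio of *Fabp4* to *Fabp5* was 0.477 to 0.521 in control samples and 0.437 to 0.453 in Cre samples, a log2 difference of -0.16 (exact permutation p = 0.029, 0.0408 adjusted over 10 pairs), so that *Fabp5* rose by more than *Fabp4*.

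The acyl-CoA synthetases, which activate fatty acids by joining them to coenzyme A, moved in different directions. *Acsl1*, the form most tied to triglyceride synthesis and oxidation, rose from 5238 ± 162 to 6375 ± 132 normalized counts (log2 fold change 0.28, adjusted p = 2.36e-08, and 0.18 with the GC and length trend removed). *Acsl5*, found on the outer mitochondrial membrane and endoplasmic reticulum, fell from 6329 ± 127 to 5913 ± 100 (log2 fold change -0.098, adjusted p = 0.00243, but 0.259 in replicates 1 and 4 alone). The arachidonate-preferring form *Acsl4*, which was the most abundant of the 3 per length (FPKM 44.8), had counts of 10669, 10272, 10407 and 10041 in control samples and of 10430, 10725, 10717 and 10314 in Cre samples. These ranges overlapped, with a log2 fold change of 0.028 (95% interval -0.022 to 0.077). Within samples, the log2 ratio of *Acsl1* to *Acsl4* was higher by 0.26 and that of *Acsl1* to *Acsl5* by 0.38 in Cre samples (exact permutation p = 0.029 and adjusted p = 0.0408 for each).

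Storage genes held both the largest decrease and the largest increase among the members. *Plin2* (adipophilin; chromosome 4, 86648386 to 86670060), the coat protein of macrophage lipid droplets whose promoter is printed above, had counts of 39818, 41970, 41571 and 41830 in control samples. Its Cre counts were 25781, 24618, 25792 and 25981. All Cre samples lay far below the control samples, and *Plin2* fell by 38.1% (log2 fold change -0.69, SE 0.024, limma adjusted p = 5.67e-15). *Plin3* (TIP47), a perilipin that also occurs free in the cytosol, rose from 4714 ± 48.9 to 5198 ± 123 (log2 fold change 0.14, adjusted p = 9.64e-05). The ratio of *Plin2* to *Plin3* counts lay between 8.55 and 8.91 in control samples and between 4.61 and 5.11 in Cre samples (log2 difference -0.83, exact permutation p = 0.029, 0.0408 adjusted over 10 pairs).

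*Dgat2*, one form of the enzyme that completes triglyceride synthesis, had few reads, with normalized counts of 23.2, 18.4, 21.7 and 19.1 in control samples and of 36.0, 52.0, 54.9 and 42.8 in Cre samples. The genotypes did not overlap, although the Cre samples varied by more than the control samples did. Its log2 fold change was 1.12 (95% interval 0.70 to 1.54, limma adjusted p = 0.000134), from 20 to 54 reads per sample. *Dgat1*, the unrelated enzyme for the same step, was at 476 ± 13.8 and 489 ± 21.1 (log2 fold change 0.038, 95% interval -0.074 to 0.15). The ratio of *Dgat1* to *Dgat2* was lower in Cre samples by 1.08 on the log2 scale (exact permutation p = 0.029, adjusted p = 0.0408). Per length, *Dgat1* stayed above *Dgat2* in both genotypes, at an FPKM of 3.73 against 0.351 in Cre samples.

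**Figure D3:**
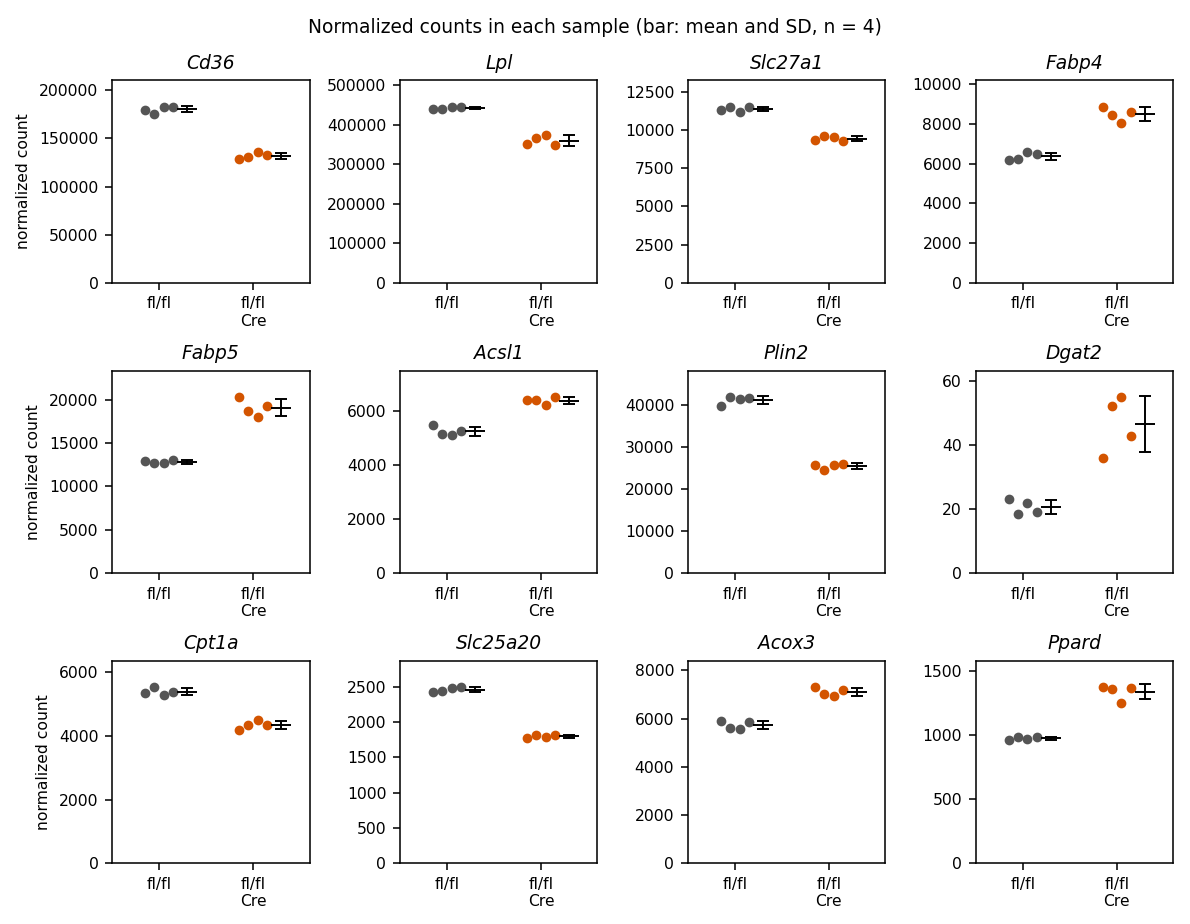
Normalized counts (y axes, from 0) in each of the 4 Phgdh fl/fl samples (grey) and 4 Phgdh fl/fl Cx3cr1-Cre samples (orange) for 12 members, with mean and SD beside them. In each of the 12 panels the samples of the genotypes do not overlap, with Cd36, Lpl, Slc27a1, Plin2, Cpt1a and Slc25a20 lower and Fabp4, Fabp5, Acsl1, Dgat2, Acox3 and Ppard higher in Cre samples.

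None of the 4 lipolysis members passed the test, and the samples of the genotypes overlapped in each. With the GC and length trend removed, *Abhd5* (log2 fold change -0.090, adjusted p = 0.0239) and *Lipe* (-0.15, adjusted p = 0.0372) were called lower. *Pnpla2* (adipose triglyceride lipase), which starts the breakdown of stored triglyceride, was at 2893 ± 106 and 2843 ± 134, and its co-activator *Abhd5* was at 3025 ± 85.1 and 2945 ± 106. The 95% intervals of their log2 fold changes were -0.097 to 0.046 and -0.10 to 0.026. *Lipe* (hormone-sensitive lipase), which acts on diglyceride, had a log2 fold change of -0.12 (95% interval -0.24 to -0.001, adjusted p = 0.099). *Mgll*, the lipase of the last step, had only 24.3 to 47.3 normalized counts per sample, and its interval of -0.26 to 0.64 allows changes in either direction. The ratio of *Pnpla2* to *Lipe* did not pass the test either (log2 difference 0.094, exact permutation p = 0.429, adjusted p = 0.476).

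Of the 3 members that carry fatty acids into mitochondria, 2 fell, against 20.3% of all tested genes. The 4 tested shuttle genes outside the members did not share this, with 1 higher and none lower (median log2 fold change 0.10). *Slc25a20* (chromosome 9, 108662088 to 108684641), the carnitine-acylcarnitine exchanger of the inner membrane, had counts of 2425, 2430, 2474 and 2490 in control samples and of 1769, 1817, 1787 and 1816 in Cre samples. The samples of each genotype lay close together and far from the other genotype. *Slc25a20* fell by 26.8% (log2 fold change -0.45, SE 0.029, limma adjusted p = 8.81e-11). It lies 11.2 Mb from *Cx3cr1*, the locus that carries the Cre.

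*Cpt1a*, which forms acylcarnitine at the outer membrane and is the controlled step of mitochondrial oxidation, had counts of 5337, 5521, 5270 and 5382 in control samples and of 4181, 4328, 4484 and 4352 in Cre samples. No Cre sample reached the control range, and *Cpt1a* fell by 19.4% (log2 fold change -0.31, SE 0.026, limma adjusted p = 7.08e-09). *Cpt2*, which turns acylcarnitine back into acyl-CoA inside the mitochondrion, was at 733 ± 66.7 and 720 ± 17.9 with overlapping samples (log2 fold change -0.021, 95% interval -0.14 to 0.095). The ratio of *Cpt1a* to *Cpt2* was 6.69 to 8.45 in control samples and 5.76 to 6.19 in Cre samples, a log2 difference of -0.29 (exact permutation p = 0.029, adjusted p = 0.0408).

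Among the 11 members of mitochondrial beta-oxidation, 6 fell, against 20.3% of all tested genes, none rose and 5 did not pass the test. Of the 16 tested genes of this role outside the members, 3 were higher and 3 lower. Of the acyl-CoA dehydrogenases, which take the first oxidation step on chains of different length, *Acadvl* (very long chain) fell from 3301 ± 47.3 to 2968 ± 30.7, *Acadm* (medium chain) from 2308 ± 45.8 to 2085 ± 82.3 and *Acads* (short chain) from 1373 ± 53.7 to 1224 ± 34.2. Their log2 fold changes were -0.15, -0.15 and -0.17, with limma adjusted p values of 6.3e-05, 0.000938 and 0.00132. The call of *Acads* was lost in replicates 1 and 4 alone (adjusted p = 0.219).

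*Acadl* (long chain), the dehydrogenase most abundant per length (FPKM 54.4), differed from these. It had counts of 4518, 4668, 4623 and 4615 in control samples and of 4767, 4932, 4766 and 4748 in Cre samples. All Cre values lay above the control values, but the log2 fold change of 0.060 did not pass the test across all genes (95% interval 0.009 to 0.11, limma adjusted p = 0.0539). It passed with the GC and length trend removed (adjusted p = 0.00676), with scaling to total reads (0.0184) and among genes averaging 100 or more normalized counts (0.0459).

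*Acaa2*, the thiolase that cleaves off acetyl-CoA, had the largest decrease of these enzymes, from 1042 ± 62.3 to 856 ± 62.0 (log2 fold change -0.28, adjusted p = 0.000164, but 0.0593 in replicates 1 and 4 alone). Smaller decreases were found for *Hadha*, the alpha subunit of the trifunctional protein (log2 fold change -0.070, adjusted p = 0.0274), and *Decr1*, the reductase needed for unsaturated chains (log2 fold change -0.097, adjusted p = 0.0301). Each of these small changes lost its call in 8 of 22 alternative settings, with adjusted p values of up to 0.204 and 0.282. *Hadhb*, the beta subunit, had a log2 fold change of 0.023 (95% interval -0.062 to 0.11), and the ratio of *Hadha* to *Hadhb* did not differ by the test (log2 difference -0.093, exact permutation p = 0.143, adjusted p = 0.179). A processed pseudogene shares 99.8% of 1428 aligned bases with *Hadhb*, so the assignment of its reads is uncertain. *Echs1*, *Hadh* and *Eci1*, which hydrate, oxidize and isomerize the shortened chains, had log2 fold changes of -0.002, 0.012 and -0.074 with overlapping samples.

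The electron transfer flavoprotein, built from the products of *Etfa* and *Etfb*, accepts the electrons of the dehydrogenases and passes them through the product of *Etfdh* to the respiratory chain. *Etfa* fell from 2935 ± 179 to 2541 ± 61.7 (log2 fold change -0.21, adjusted p = 0.000102), with -0.11 and no call in replicates 1 and 4 alone (adjusted p = 0.122). *Etfb* was at 242 ± 21.4 and 212 ± 21.6, a log2 fold change of -0.19 that did not pass the test (95% interval -0.38 to -0.008, adjusted p = 0.0882). Its fold change was called in replicates 2 and 3 alone (-0.39, adjusted p = 0.0163) and turned sign in replicates 1 and 4 alone, a split chosen after seeing the data. A transcript of *Gm45233*, not analysed here, shares 99.7% of 626 aligned bases with *Etfb*, so the assignment of *Etfb* reads is uncertain. *Etfdh* was at 1805 ± 45.2 and 1783 ± 55.3 (95% interval of the log2 fold change -0.087 to 0.052), and was called lower with the GC and length trend removed (-0.094, adjusted p = 0.0254).

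Of the 3 peroxisomal members, 2 rose, against 20.8% of all tested genes, and none fell. The 11 tested peroxisomal genes outside the members did not share this, with 1 higher and 3 lower. *Acox3*, an oxidase that opens peroxisomal oxidation of branched chains, had counts of 5907, 5624, 5557 and 5863 in control samples and of 7298, 7036, 6927 and 7198 in Cre samples. The lowest Cre sample lay above the highest control sample, and the increase was 24.0% (log2 fold change 0.31, SE 0.026, limma adjusted p = 6.18e-09). *Ehhadh*, the bifunctional enzyme of the middle steps, went from 248 ± 9.07 to 282 ± 12.2 (log2 fold change 0.18, adjusted p = 0.0399), a call that was lost in 10 of 22 alternative settings (adjusted p up to 0.394). *Acaa1a*, the peroxisomal thiolase, had a log2 fold change of 0.040 (adjusted p = 0.257). It is the member nearest to *Cx3cr1*, at 0.551 Mb, and its close copy *Acaa1b* (96.6% identical) was not analysed here.

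Of the regulators, the nuclear receptor gene *Ppard* (chromosome 17, 28232700 to 28301474; promoter printed above) had counts of 963, 983, 969 and 987 in control samples and of 1372, 1362, 1251 and 1363 in Cre samples. The genotypes were clearly apart, and *Ppard* rose by 37.1% (log2 fold change 0.45, SE 0.039, limma adjusted p = 7.28e-09). The co-activator gene *Ppargc1b* had few reads, at 68.7 ± 10.6 and 80.7 ± 11.6 normalized counts, and did not pass the test (log2 fold change 0.23, 95% interval -0.069 to 0.53).

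Ratios of paired members were compared within each sample, since such a ratio depends little on how samples were scaled, except at low counts, where the 1 added to each count matters (*Dgat2*). Of the 10 pairs, 7 differed between the genotypes at the smallest p that the design allows. Most of these set a called member against an uncalled one or one that moved the other way. They thus restate the results of the single genes and are no separate evidence. The largest differences were those of *Dgat1* to *Dgat2* and *Plin2* to *Plin3*. The ratio of *Etfa* to *Etfb* ranged from 11.4 to 12.5 in control samples and from 10.9 to 13.1 in Cre samples (exact permutation p = 0.857), one of the 3 pairs that did not differ by the test.

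**Figure D4:**
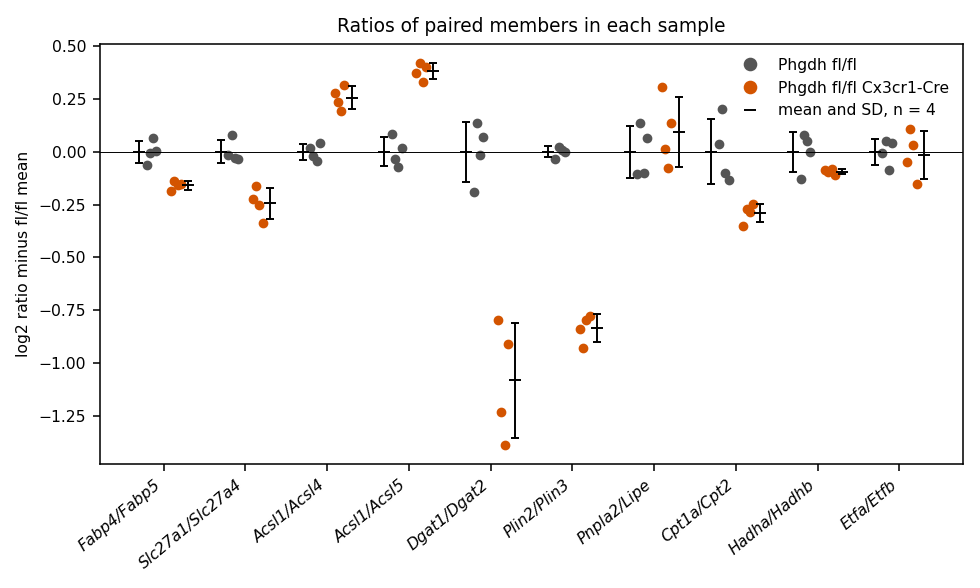
Log2 ratio of the normalized counts of 10 pairs of members in each sample (y axis, set so that the mean of the 4 Phgdh fl/fl samples is 0), with mean and SD for each genotype. Control and Cre samples are separate for 7 pairs, with the widest gaps at Dgat1/Dgat2 and Plin2/Plin3, and overlap for Pnpla2/Lipe, Hadha/Hadhb and Etfa/Etfb.

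A list of 101 further genes of the same pathways was examined, of which 82 were analysed and 78 tested. Of these, 17 were higher in Cre samples (21.8%, against 20.8% of all tested genes) and 21 lower (26.9%, against 20.3%), and 40 did not pass the test, with a median log2 fold change of -0.007. The change with the largest size was in *Angptl4*, which encodes a secreted inhibitor of lipoprotein lipase. *Angptl4* had counts of 84.6, 82.8, 120 and 115 in control samples and of 31.5, 27.0, 35.6 and 35.0 in Cre samples. It fell by 67.9% (log2 fold change -1.60, limma adjusted p = 1.09e-07), so that the lipase gene *Lpl* and the gene of its inhibitor were both lower.

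Other genes of uptake and lipid binding moved in both directions. *Slc27a6*, a further fatty acid transport protein, went from 20.6 ± 5.8 to 42.3 ± 10.6 counts, with samples of the genotypes overlapping (log2 fold change 1.00, adjusted p = 0.00209, 0.60 and not called in replicates 1 and 4 alone). *Vldlr*, a lipoprotein receptor, rose from 277 ± 23.9 to 346 ± 14.7 (log2 fold change 0.32, adjusted p = 0.00104). *Fabp7*, the brain form of the binding proteins, fell from 274 ± 35.2 to 177 ± 8.31 (log2 fold change -0.62, adjusted p = 1.18e-05), in contrast to the members *Fabp4* and *Fabp5*.

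In storage, *Hilpda*, which encodes a lipid droplet protein that inhibits adipose triglyceride lipase, fell from 1584 ± 41.7 to 1230 ± 76.6 (log2 fold change -0.37, adjusted p = 3.89e-07), the same direction as *Plin2*. *Lpin1*, which makes diglyceride for triglyceride synthesis, rose from 632 ± 42.5 to 770 ± 39.2 (log2 fold change 0.29, adjusted p = 0.000179). *Acot1*, a thioesterase that frees fatty acids from coenzyme A, fell from 47.7 ± 3.66 to 30.6 ± 5.03 (log2 fold change -0.64, adjusted p = 0.00797), a call that was lost in replicates 1 and 4 alone (adjusted p = 0.107) and in replicates 2 and 3 alone (0.0739).

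In mitochondria, *Acadsb*, a dehydrogenase for short branched chains, rose from 2408 ± 83.6 to 2913 ± 84.0 (log2 fold change 0.27, adjusted p = 4.96e-07), and *Acss1*, which activates acetate, went from 155 ± 13.1 to 188 ± 14.0 (log2 fold change 0.28, adjusted p = 0.020). The fold change of *Acss1* was 0.11 in replicates 1 and 4 alone, where it was not called, and 0.45 in replicates 2 and 3 alone, and the call was also lost without Cre replicate 2 (adjusted p = 0.062), Cre replicate 3 (0.0695) or control replicate 3 (0.0612). Of the 11 further peroxisomal genes tested, 1 was higher and 3 were lower, which were named after their values were seen. *Abcd3*, a transporter of the peroxisomal membrane, was higher (log2 fold change 0.10, adjusted p = 0.00474), whereas the oxidation enzymes *Hsd17b4* (-0.099, adjusted p = 0.0029) and *Scp2* (-0.16, adjusted p = 0.000635) and the import receptor *Pex7* (-0.14, adjusted p = 0.0136) were lower. Among regulators, *Prkaa2*, a catalytic subunit of AMP-activated kinase, rose from 82.9 ± 13.1 to 131 ± 13.1 (log2 fold change 0.66, adjusted p = 0.000258). *Pparg* fell (log2 fold change -0.21, adjusted p = 0.00146) and *Rxra*, the partner of the PPARs on DNA, rose (0.23, adjusted p = 3.53e-06). Both were named after their values were seen, for their link to *Ppard*.

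**Figure D5:**
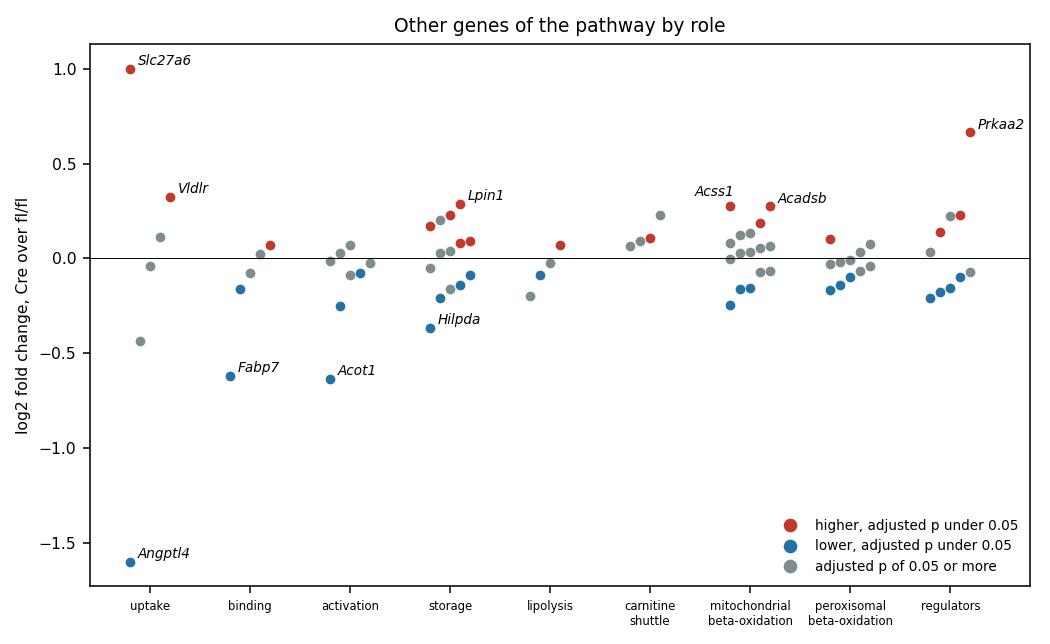
Log2 fold change in Cre over control samples (y axis) of the 78 tested further genes of the pathway, by role (x axis), each point 1 gene. Most points lie within 0.3 of 0, and Angptl4 at -1.60 and Slc27a6 at 1.00 lie farthest out.

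The Cre allele was carried by the deficient genotype only, and *Cx3cr1* itself was at 1075 ± 94.2 normalized counts in control and 660 ± 32.2 in Cre samples (log2 fold change -0.70, adjusted p = 1.87e-09). Effects of the Cre, of the altered *Cx3cr1* locus and of the loss of *Phgdh* on the members cannot be told apart in this design. Of the 4 members on chromosome 9, *Acaa1a* and *Abhd5* lie nearest to *Cx3cr1*, at 0.551 and 2.28 Mb, and did not pass the test. *Abhd5* was called lower with the GC and length trend removed. *Slc25a20* at 11.2 Mb and *Etfa* at 64.4 Mb fell. Whether distance from *Cx3cr1* plays a part was not tested.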

How the data were processed

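RNA was sequenced with the NEBNext Ultra Directional kit from 8 samples, 4 per genotype, each labelled a biological replicate. Per the submitters' processing notes, the authors used TopHat2, HTSeq 0.6, DESeq2 and build mm10, and whether counting used strand is not given in the sources used here. The deposited values are a signal, read counts divided by 1 size factor per sample and not by gene length, although the study calls them FPKM: all 144353 values above 0 were whole reads within 0.1 read. The deposited comparison columns of the authors (log2 fold change, its error, score and p-value) were not used. The mean column matched the mean of the samples.

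Genes averaging 10 or more normalized counts were tested with limma 3.58.1 (lmFit, eBayes with trend, two-sided) on log2(normalized count + 1), with Benjamini-Hochberg adjustment over 13629 genes, called at 0.05. Fold changes are on this scale and understate those of low genes. FPKM was computed from recovered reads and the combined length of all annotated GENCODE exons of a gene, and rankings per length refer to it. That length can exceed the length of the transcripts in use. Ratios of 10 pairs were tested by an exact two-sided permutation test over 70 labelings. In simulated data for this comparison, 62 of 65 genes changed by 0.3, 95 of 100 changed by 0.5 and 35 of 35 changed by 1.0 (log2) were called in the right direction among 13630 genes. There, 11 unchanged genes were called. The simulation changed far fewer genes than were called here and gave all genes the same spread between replicates beyond counting noise. It changed no gene with as few reads as *Dgat2* or *Mgll*, so it does not measure the sensitivity reached in the real data. Close copies were sought with blastn 2.17.0 (at least 90% identity over 300 bases). Alternatives included DESeq2 1.42.0 and edgeR 4.0.16 on recovered reads.

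The members and lists were chosen with earlier results of these data known. Values are given per sample for members with an absolute log2 fold change of at least 0.3 that passed the test and for the 6 most abundant per length, and the 10 further pathway genes with the largest called changes are named.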

Additional observations from a re-analysis of the deposited data

Results flagged for a closer look

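In 7 of 120 groups of 4 samples examined, 1 sample lay apart from the other 3 by Dixon's test, and chance gives about 1 in 20. *Phgdh* fl/fl *Cx3cr1*-Cre replicate 2 lay apart in *Plin2* (24620 normalized counts, median of the others 25790), in *Acadl* (4932, others 4766) and in *Acaa1a* (4260, others 4411). *Pnpla2* was low in *Phgdh* fl/fl replicate 1 (2735, others 2954). *Ppard* was low in Cre replicate 3 (1251, others 1363), still above all control samples. *Ppargc1b* was high in Cre replicate 1 (97.9, others 75.9). The ratio of *Slc27a1* to *Slc27a4* was high in *Phgdh* fl/fl replicate 2 (7.78, others 7.21).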

How the results depend on the processing

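Each member, *Phgdh* and the 10 named further genes were refitted under up to 22 alternatives, the pairs under 11 and the count of members without overlap under 8, while read shares, promoter counts, markers, *Cx3cr1*, *Pparg*, *Rxra* and the further peroxisomal genes were not recomputed. All 22 called members kept their direction in every alternative that tested them, and 15 also kept their call in each. *Ehhadh*, *Hadha* and *Decr1* lost their calls in 10, 8 and 8 alternatives, among them those without Cre replicate 1, 4 or control replicate 1, 2 (*Ehhadh*), without Cre replicate 1, 2, 4 or control replicate 2, 3 (*Hadha*) and without Cre replicate 1, 2 or control replicate 2, 4 (*Decr1*). Calls were gained by *Lipe* without Cre replicate 3 (adjusted p = 0.0279) or control replicate 2 (0.0454), by *Etfb* without Cre replicate 4 (0.0406) or under quantile normalization (0.0487), by *Abhd5* in replicates 2 and 3 alone (0.0441), and by the ratio Hadha/Hadhb without control replicate 1 (exact permutation, adjusted p = 0.0357). *Acsl5*, *Acads*, *Acaa2* and *Etfa* lost theirs only in replicates 1 and 4 alone, a comparison of 2 against 2 samples chosen after seeing the data because replicates 1 and 4 separated from 2 and 3 along the second principal component. There, 2925 genes were called (1525 higher, 1400 lower), with 8 members lower, and 6 further pathway genes higher and 8 lower. With a cutoff of 0.26 on the log2 scale, 1823 genes were called (1108 higher, 715 lower), with 7 members lower. On the recovered reads, DESeq2 called 5066 genes (7 members higher, 13 lower) and edgeR 5608 (8 higher, 14 lower).

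Samples of the same replicate number deviated together only weakly (r = 0.063, 0.098, 0.126 and 0.078), so the numbers were not taken to pair the samples. With the replicate number as a block, 5597 genes were called, 7 members higher and 14 lower. *Ehhadh* was the member that lost its call (adjusted p = 0.0525).

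With the trend in GC content and length removed, 2168 genes were higher and 3366 lower, against 2830 and 2764, with 9 members higher and 17 lower (*Abhd5*, *Lipe*, *Acadl* and *Etfdh* gained calls), and the log2 fold changes of uncalled members turned sign to -0.008 (*Acsl4*), 0.015 (*Cpt2*), -0.03 (*Hadhb*) and -0.003 (*Hadh*), with or without the block. Values of called members also moved by over 1.5 times for *Acsl1* (0.18) and *Hadha* (-0.14) there, for *Cd36* (-0.26) under quantile normalization, and in replicates 1 and 4 alone for *Etfa* (-0.11), *Acads* (-0.11) and *Acsl5* (-0.063). Those of *Slc27a6* (0.60) and *Acss1* (0.11, and 0.45 in replicates 2 and 3 alone) did so too. *Echs1* turned to 0.002 under quantile normalization and 0.013 with scaling to total reads. In replicates 1 and 4 alone, *Pnpla2* (0.042), *Abhd5* (0.022), *Hadhb* (-0.044), *Hadh* (-0.026), *Etfb* (0.011) and *Etfdh* (0.022) turned sign, as did *Cpt2* (0.037) and *Echs1* (0.006) in replicates 2 and 3 alone. None of these sign changes was in a called member. Leaving out 1 sample gave -0.076 to 0.024 for *Cpt2*, -0.029 to 0.021 for *Echs1*, -0.031 to 0.004 for *Etfdh*, -0.008 to 0.049 for *Hadh*, -0.001 to 0.061 for *Hadhb* and -0.056 to 0.032 for the ratio of *Etfa* to *Etfb*. Between 4966 and 5917 genes were then called, with 7 to 8 members higher and 12 to 15 lower. Depth limits *Dgat2*, *Mgll* and *Ppargc1b*, with under 100 normalized counts in each sample.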
